A study of Mus musculus with 12 samples.

Results

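The Slit ligands, their Robo receptors and the Srgap proteins that act inside the cell form a signalling system of 10 genes, measured here in mouse liver. They were taken as the rows of the array table whose gene symbol in the platform annotation was Robo1 to Robo4, Slit1 to Slit3 or Srgap1 to Srgap3. All 10 were found, among 19938 genes, on 11 of the 21789 probe sets that carry 1 gene symbol. Srgap3 had 2 probe sets and the other 9 genes had 1 each. The set was chosen by values of the genotype comparison below, in which Robo1 and Srgap3 were among the genes called changed. The differences of the 10 genes between genotypes are therefore given as descriptions, and nothing is supported with them.

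The study compared refed livers of 6 wild-type (WT) and 6 LRH-1 K289R male mice on the C57BL/6J background, 1 Affymetrix gene array per mouse. LRH-1 is the nuclear receptor encoded by Nr5a2, and the K289R knock-in puts an arginine in place of a lysine at which SUMO is attached. Every mouse in both groups went without food for 24 h, was then given food for 6 h and was killed at 8 am, per the labels and the series' design text. On WT replicate 4 the genotype label has the strain name run into it, and that mouse was placed by its title, which gives WT. The labels give no age, do not say whether the knock-in mice carried the change on both alleles, and describe a change present in the whole animal rather than in hepatocytes alone. Hepatocyte markers, among them albumin, averaged 12.02 to 12.11 on the log2 scale on all 12 arrays, far above the array medians given below.

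Slits are secreted proteins that bind the immunoglobulin domains of Robo receptors and were first known for repelling growing axons. They also act in vessels and in many epithelia, and SLIT2 acting through ROBO1 has been studied in liver fibrosis. Robo receptors have no enzyme activity of their own. They pass the signal on through adaptors such as the Srgap proteins, which bend membranes with an F-BAR domain and bind Robo1 with an SH3 domain.

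In K289R livers the receptor Robo1 was 2.35-fold higher and the adaptor Srgap3 was 1.33-fold lower than in WT, and the other 8 genes were not called. A gene counted as called at a limma adjusted p under 0.05 over all 19938 genes. That rule called 0.572% of all genes, 0.481% higher and 0.0903% lower in K289R. Among the 10 genes 1 was higher and 1 lower, a count from which nothing is read because this contrast served to choose the set. The median log2 difference (K289R minus WT) of the 10 genes was 0.03, beside -0.01 over all genes. The arrays of the genotypes did not overlap for 3 of the 10 genes, Robo1, Srgap2 and Srgap3, and for 1.24% of all genes.

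**Figure D1:**
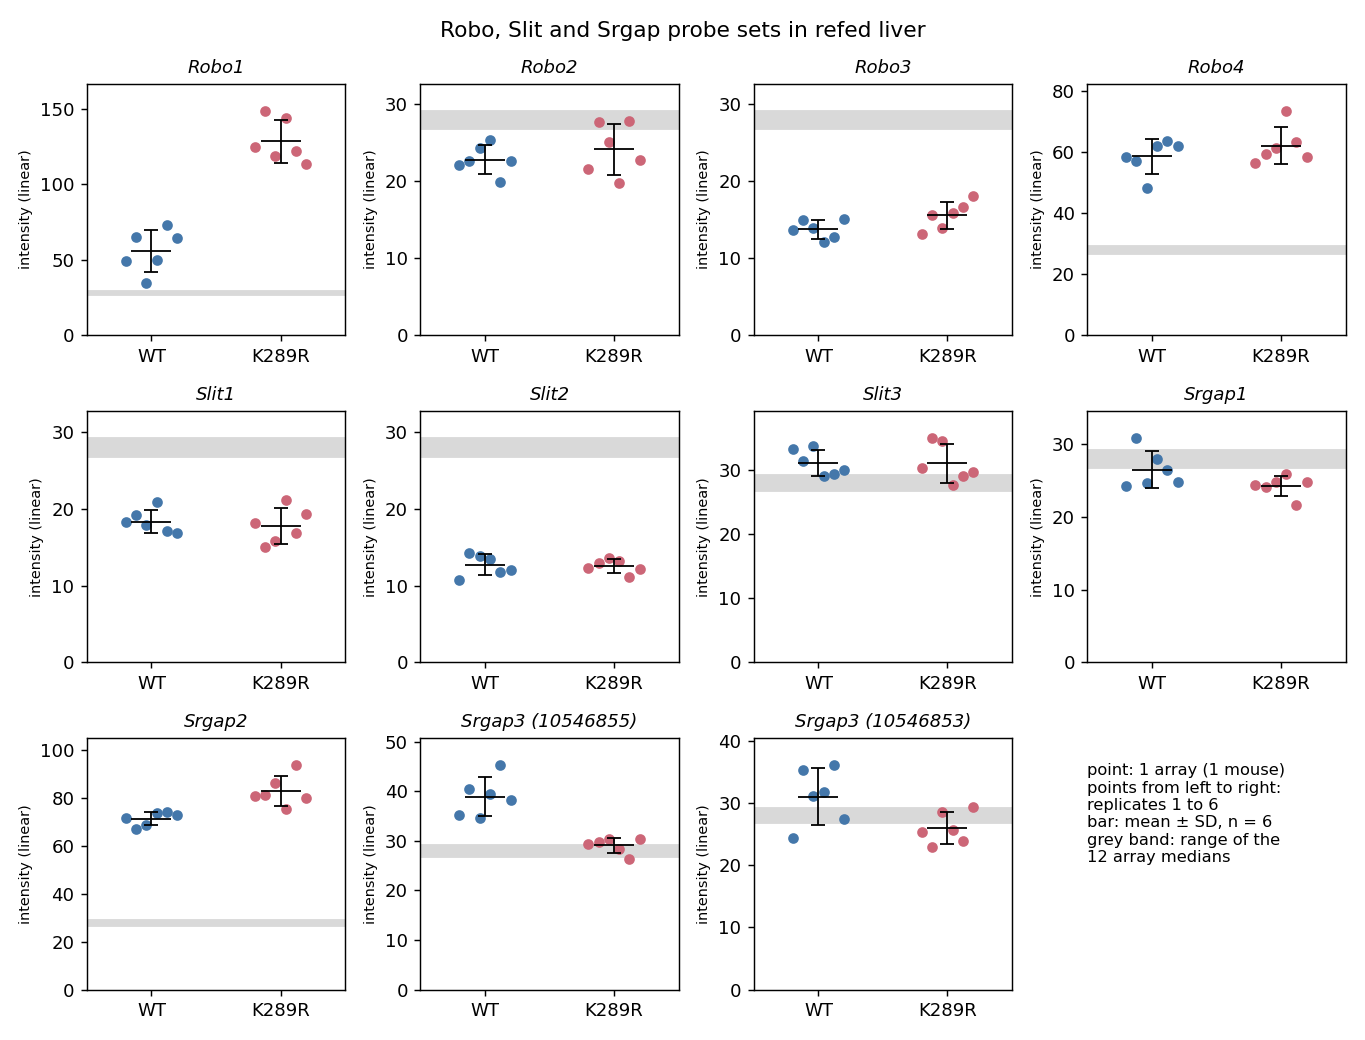
Linear intensity of each Robo, Slit and Srgap probe set (vertical axes, from 0) on the 6 WT and 6 K289R arrays, with mean ± SD as bars and the range of the 12 array medians (26.8 to 29.2) as a grey band. All K289R points lie above all WT points for Robo1 and Srgap2, and below them for the Srgap3 probe set 10546855.

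Intensities were on a linear scale, and the median of all rows lay between 26.8 and 29.2 on the 12 arrays. Values below that range cannot be told from background here, and probe sets of different genes are not compared in level. In whole liver, fewer cells of a type and less RNA per cell cannot be told apart. Slit1, Slit2 and Robo3 lay below the median of their own array on all 12 arrays, so these probe sets say little about the amount of transcript. Robo1, Robo4 and Srgap2 lay above it on all 12.

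The ligands showed no separation of the genotypes. Slit1 (probe set 10467599, chromosome 19) ranged from 16.8 through a median of 18.1 to 20.8 in WT, and from 15.0 through 17.4 to 21.2 in K289R. Slit2 (10521759, chromosome 5) ranged from 10.8 through 12.7 to 14.2 in WT, and from 11.1 through 12.6 to 13.6 in K289R. For Slit3 (10375175, chromosome 11) the values were 29.1, 30.7 and 33.7 in WT, and 27.7, 30.0 and 35.1 in K289R, as lowest, median and highest. The ranges of the genotypes overlapped in each of the 3 Slit genes. Slit3 was above its array's median on 11 of 12 arrays. Its log2 difference was -0.01 (95% interval -0.16 to 0.15), and those of Slit1 and Slit2 were -0.06 (-0.24 to 0.13) and -0.01 (-0.18 to 0.15). For Slit3 these limits correspond to K289R levels between 0.893 and 1.11 times those of WT, as measured.

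Slit2 and Slit3 each hold a microRNA gene within their bounds, Mir218-1 in Slit2 and Mir218-2 in Slit3, per the RefSeq gene table. Both genes give the same mature miR-218-5p, for which Robo1 is a known target. The mature RNAs are shown as background, with the seed (bases 2 to 8 from the 5′ end) in capitals. The part of miR-218 in the Robo1 difference was not tested. The sequences are from RefSeq, build GRCm38.p6, and both genes lie on the plus strand.
mmu-miR-218-5p: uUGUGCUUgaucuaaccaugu
mmu-miR-218-1-3p: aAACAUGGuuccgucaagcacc
mmu-miR-218-2-3p: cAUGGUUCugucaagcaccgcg
The 5p seed is shared by the 2 genes, whereas their 3p arms have different seeds. The array probe sets of these genes do not tell the mature RNA from its precursor. Mir218-1 (10521796) measured 11.2 ± 1.29 and 10.3 ± 1.75 in WT and mutant livers, and Mir218-2 (10375214) measured 22.4 ± 4.45 and 20.1 ± 2.31 (SD over 6 arrays). All these values lay below the array medians, so they say little about the amount of these RNAs. The log2 differences by limma were -0.13 (95% interval -0.35 to 0.09) for Mir218-1 and -0.13 (-0.40 to 0.14) for Mir218-2. Neither gene was called. These microRNA genes were added after the annotation had been examined.

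Among the receptors Robo1, a Slit receptor of many tissues, was the one called. Robo1 (probe set 10436519, chromosome 16) ranged from 34.6 through a median of 57.2 to 72.9 in WT, and from 114 through 123 to 149 in K289R. The lowest K289R array, 114 on replicate 6, was thus above the highest WT array, 72.9 on replicate 5. Mean intensity was 56.0 ± 14.0 for the WT mice and 129 ± 14.3 for the K289R mice (SD, n = 6). The log2 difference was 1.23 (95% interval 0.93 to 1.54), which is 2.35-fold (1.90 to 2.91). The limma adjusted p that placed Robo1 among the called genes was 0.000277, and its rise was number 14 by size among the 96 genes called higher.

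The remaining receptors overlapped between genotypes. Robo2 (10440344), which lies next to Robo1 among the measured genes of chromosome 16, ranged from 20.0 through 22.7 to 25.3 in WT and from 19.8 through 24.0 to 27.8 in K289R. Robo3 (10592303, chromosome 9), a divergent receptor of commissural neurons, ranged from 12.1 through 13.8 to 15.1 in WT and from 13.2 through 15.8 to 18.1 in K289R. Robo4 (10584288, chromosome 9), the receptor of endothelial cells, ranged from 48.5 through 60.3 to 63.8 in WT and from 56.5 through 60.5 to 73.7 in K289R. The highest value of each was on a K289R array, and for Robo3 4 of the 6 K289R arrays, but not the other 2, lay above all WT arrays. The log2 differences were 0.07 (95% interval -0.12 to 0.26) for Robo2, 0.18 (-0.0047 to 0.35) for Robo3 and 0.08 (-0.09 to 0.26) for Robo4. Robo3 and most Robo2 values were under the array medians, and Robo2 rose above them on 2 of 12 arrays.

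**Figure D2:**
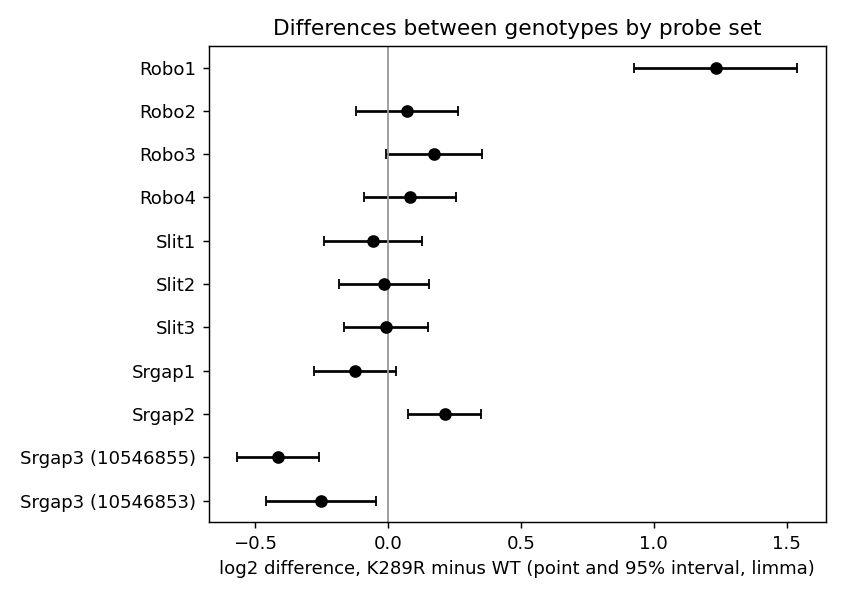
Log2 difference of each probe set, K289R minus WT (horizontal axis), as a point with its 95% interval from limma over all probe sets with 1 gene symbol. Robo1 stands at 1.23, the Srgap3 probe sets at -0.41 and -0.25, and Srgap2 at 0.21; the intervals of the other genes include 0.

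Among the Srgap adaptors Srgap3 was the one called. Srgap3, a GTPase-activating protein for Rac also known as WRP, was measured by 2 probe sets on chromosome 6 that are annotated to the same RefSeq transcript. The brighter one (10546855) ranged from 34.7 through a median of 38.9 to 45.3 in WT, and from 26.4 through 29.5 to 30.5 in K289R. Every K289R array lay below every WT array on it. Mean intensity was 38.9 ± 3.90 for the WT mice and 29.1 ± 1.54 for the K289R mice (SD, n = 6), a log2 difference of -0.41 (95% interval -0.57 to -0.26), or 1.33-fold lower (1.20 to 1.48). The K289R values lay at the level of the array medians, so 1.33-fold is the fold as measured, with background not separated from it.

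The dimmer Srgap3 probe set (10546853) ranged from 24.4 through 31.4 to 36.1 in WT, and from 22.9 through 25.4 to 29.3 in K289R. It was lower in K289R on average, but the arrays overlapped: WT replicates 1 and 6 measured 24.4 and 27.3, within the K289R range. Its means were 31.0 ± 4.51 and 25.9 ± 2.54 (SD, n = 6 each), and its log2 difference was -0.25 (95% interval -0.46 to -0.04). On the brighter probe set Srgap3 had a limma adjusted p of 0.0110. Its fall there was number 17 by size of the log2 difference among the 18 genes called lower. When the probe sets were averaged the log2 difference was -0.33 and the call was lost (adjusted p = 0.0846). Within genotypes the probe sets varied together over the 12 arrays (Pearson r = 0.69, Spearman rho = 0.68, on log2 values less the group mean), a description of probe sets that share their arrays. The dimmer probe set exceeded its array's median on 6 of 12 arrays only. Its difference and its likeness to the brighter one are therefore not separated from background.

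Srgap2 (10357630), which shapes membrane protrusions in migrating neurons and dendritic spines, ranged from 67.1 through 72.2 to 73.9 in WT and from 75.2 through 81.1 to 93.7 in K289R. All K289R arrays were above all WT arrays, by a small margin between 73.9 and 75.2. The means were 71.3 ± 2.85 and 82.9 ± 6.39 (SD, n = 6 each), and the log2 difference was 0.21 (95% interval 0.08 to 0.35). Srgap2 was not called. With a limma adjusted p of 0.179 it was the gene of the set nearest outside the threshold, and Srgap3 at 0.0110 was the nearest inside. Srgap1 (10372891, chromosome 10), which inactivates Cdc42 in Slit signalling, ranged from 24.2 through 25.6 to 30.9 in WT and from 21.6 through 24.6 to 25.9 in K289R. Its arrays overlapped, it exceeded its array's median on 1 of 12 arrays, and its log2 difference was -0.12 (95% interval -0.28 to 0.03).

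Genes that flank Robo1, Srgap3 and Srgap2 outside the set were not called. Gbe1, the glycogen branching enzyme and the measured neighbour of Robo1 on its other side, measured 477 ± 79.4 against 575 ± 22.4 (WT, then K289R; SD, 6 arrays each), a log2 difference of 0.28 by limma (adjusted p = 0.249). Rad18, a DNA repair ligase, and Thumpd3 flank Srgap3. Rad18 differed by 0.08 on the log2 scale (adjusted p = 0.736) and Thumpd3 by -0.15 (0.528). Next to Srgap2 on chromosome 1 were Ikbke (-0.20, adjusted p = 0.527) and Fam72a (0.39, adjusted p = 0.176). Srgap2 is on the same chromosome as Nr5a2, with 84 measured genes between them, of which Ctse, Pm20d1 and Snrpe were called higher and Rnpep lower. That is 4.76% of the genes in between, beside 0.802% of the 1122 genes tested on chromosome 1 and 0.572% of all genes. Both of these shares include the genes in between. Neighbours were read from the order of the RefSeq gene table of GRCm38.p6, which served only for names and order. None of the other flanking genes outside the set was called. Beside the microRNA genes above they were Lipi, Msantd2, Hepacam, Lcor, Arhgap19, Lcorl, Spdl1, BC048403 and Rxylt1, whose log2 differences lay between -0.06 and 0.11.

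The letters CAAGGNCA, the core of the site that LRH-1 binds, were searched on both strands of RefSeq promoter windows reaching from 250 bases before to 50 bases after a gene's start. The table held 11 windows for 9 of the 10 genes, with 3 for Robo2. No window of these genes held the letters, and 6.71% of all 32851 windows did. This says only that the letters are not in these windows, and LRH-1 binding was not measured.

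Partners of the pathway were called at a share near that of all genes. Over 8 lists of partners and related families, drawn up with earlier results of these arrays known, 225 genes were measured. Of them 2 rose in K289R and none fell by limma, which is 0.889% beside 0.572% of all genes. At an unadjusted p under 0.05 there were 22 higher and 11 lower, 14.7% beside 12% of all genes. The median log2 difference was -0.0034 over the 225 genes and -0.01 over all genes. Some list genes lay below the array medians on all arrays and say little. These were 12 of 47 other RhoGAP genes, 11 of 33 netrins, ephrins and receptors, and 9 of 31 semaphorins, plexins and neuropilins. So did 9 of 26 co-receptors and extracellular partners, 6 of 22 heparan sulfate genes, and 1 or 2 genes in each other list.

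Fmnl2, a formin that builds actin filaments under the control of Cdc42, rose from 63.3 ± 5.77 to 94.7 ± 16.1 (SD, n = 6 each, 1.48-fold, limma adjusted p = 0.0110). It belongs to the list of Srgap partners and the WAVE complex, in which 1 of 24 genes rose and none fell, with a median of 0.01. Arhgap18, a GTPase-activating protein for RhoA, rose from 44.4 ± 4.43 to 61.9 ± 7.26 (1.39-fold, adjusted p = 0.0140), as 1 of 47 other RhoGAP genes with a median of 0.04. The arrays of the genotypes did not overlap for either gene, for Fmnl2 by a very small margin between 73.1 (highest WT) and 73.3 (lowest K289R). Both calls were lost without K289R 1 and 3 (adjusted p = 0.0669 for Fmnl2 and 0.0802 for Arhgap18) and when all rows of the table were tested (0.0553 and 0.0571). Without WT 1 and 3 the Arhgap18 call was lost as well (adjusted p = 0.0727), and without all 4 arrays neither gene was called (0.0986 for Fmnl2 and 0.219 for Arhgap18). The log2 differences moved little: Fmnl2 had 0.57 with all arrays, 0.56 without K289R 1 and 3 and 0.60 without all 4, and Arhgap18 had 0.48, 0.46 and 0.45.

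Effectors that act under Robo in the cytoplasm had 0 of 28 genes called by limma, with 2 higher and none lower at an unadjusted p under 0.05 and a median of 0.03. The smallest p there belonged to Myo9b, a myosin with a RhoGAP domain that binds Robo1 (log2 difference 0.17, adjusted p = 0.273), and Sos1, an exchange factor for Ras and Rac (0.19, adjusted p = 0.352). Of 26 co-receptors and extracellular partners none was called, with 1 higher and none lower at the unadjusted p and a median of 0.01. Igsf11, an adhesion molecule, measured 202 ± 20.4 and 253 ± 22.9 (adjusted p = 0.0947), and the glypican Gpc4 had a log2 difference of 0.12 (adjusted p = 0.476). Heparan sulfate, the sugar chain that holds Slit and Robo together, is made by enzymes of which 0 of 22 were called, with 4 higher and 1 lower at the unadjusted p and a median of 0.02. The sulfotransferase Hs6st1 measured 244 ± 19.2 and 302 ± 24.6 (adjusted p = 0.0764), and the epimerase Glce 74.4 ± 5.97 and 95.8 ± 12.5 (adjusted p = 0.0796).

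Other F-BAR proteins had 0 of 20 genes called, 2 higher and none lower at the unadjusted p, and a median of -0.02. Nostrin and Fcho2, which act in endocytosis, had log2 differences of 0.21 (limma adjusted p = 0.312) and 0.17 (0.410). Of 31 semaphorins, plexins and neuropilins none was called, with 4 higher and 4 lower at the unadjusted p and a median of -0.03. Neuropilin 2 (Nrp2), a receptor of class 3 semaphorins, measured 47.0 ± 4.21 in WT and 62.7 ± 9.06 in K289R (adjusted p = 0.0572), and the semaphorin receptor Plxna2 measured 200 ± 32.9 and 147 ± 8.79 (adjusted p = 0.0729). Of 33 netrins, ephrins and their receptors none was called, with 2 in each direction at the unadjusted p and a median of -0.05. Netrin 3 (Ntn3) had a log2 difference of 0.33 (adjusted p = 0.121) and the ephrin Efna5 one of 0.31 (adjusted p = 0.207).

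**Figure D3:**
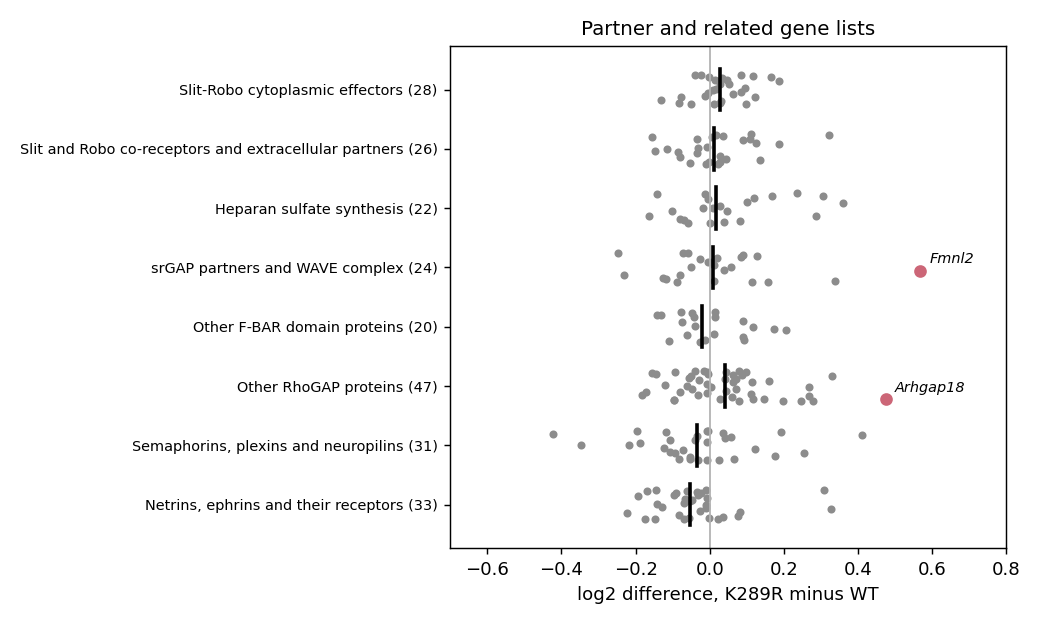
Log2 difference between genotypes, K289R minus WT (horizontal axis), of each measured gene of 8 lists, with the number of genes in brackets and the list median as a black bar. Fmnl2 (0.57) and Arhgap18 (0.48) are the coloured points that were called, and the list medians lie between -0.05 and 0.04.

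Some arrays stood apart through transcripts of other tissues or of the acute phase. Acute phase genes, which the liver makes in inflammation, averaged 9.67 and 9.89 on the log2 scale on WT 1 and WT 3, 7.79 to 8.11 on the other WT arrays and 7.79 to 8.73 on K289R arrays. Robo1 measured 49.0 and 34.6 on WT 1 and WT 3, the lowest values of the group, with WT 4 close above WT 1. Without those arrays its WT mean was 63.2 ± 9.54 (SD, n = 4) and its log2 difference 1.03, against 1.23 with all arrays. Skeletal muscle markers averaged 6.92 on WT 1 and 5.88 on K289R 3, and 4.22 to 4.64 on the other 10 arrays, so WT 1 stood apart in muscle transcripts as well. Srgap3 was also lowest in WT on WT 1 and WT 3, at 35.1 and 34.7 on its brighter probe set. Without these arrays its WT mean was 40.9 ± 3.08 (SD, n = 4) and its log2 difference -0.49, so that the Robo1 difference was smaller and the Srgap3 difference larger. The part of the acute phase or of muscle transcripts in this was not tested.

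**Figure D4:**
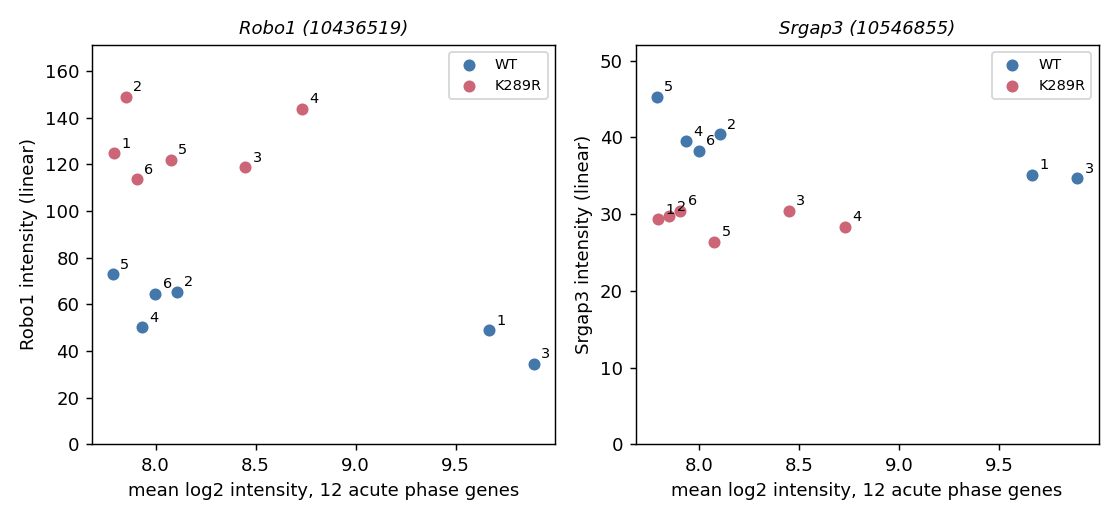
Linear intensity (vertical axis, from 0) of Robo1 and of the brighter Srgap3 probe set against the mean log2 intensity of 12 acute phase genes (horizontal axis), 1 point per array with its replicate number. WT 1 and 3 lie at 9.67 and 9.89 on the horizontal axis. On the vertical axis the genotypes do not overlap over all arrays, so no subset of arrays could overlap. The part of the acute phase was not tested.

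Pancreatic acinar transcripts averaged 9.22 and 9.90 on K289R 1 and K289R 3, and 4.54 to 4.88 on the other 10 arrays. Robo1 was 125 and 119 on those 2 arrays and 114 to 149 on the other K289R arrays. Without them the log2 differences were 1.27 for Robo1 and -0.43 for Srgap3 (limma adjusted p = 0.0493). With all 4 arrays left out they were 1.07 and -0.51. Both genes were called in each of these fits, a description, since these arrays served to choose them.

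Cell types that can express these genes were followed by their markers. Endothelial markers without Robo4 (11 genes) averaged 6.59 to 6.93 in WT and 6.76 to 6.99 in K289R, and none of the 12 genes of the list was called. Stellate cell markers (11 genes) averaged 6.44 to 6.69 and 6.42 to 6.68, cholangiocyte markers (6 genes) 4.33 to 4.59 and 4.39 to 4.74, and Kupffer cell markers (7 genes) 6.14 to 6.76 and 6.24 to 7.25. Of the 6 cholangiocyte markers 3 lay below the array medians on all arrays. Neuron and glia markers (10 genes) averaged 4.17 to 4.44 in WT and 4.14 to 4.29 in K289R, and 7 of them lay below the array medians on all arrays. The ranges of the genotypes overlapped for each of these lists. The part of these cell types in the differences of Robo1 and Srgap3 was not tested.

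Variation between mice of a genotype ran in mixed directions among the 10 genes. Over the 45 pairs of members, Pearson r of log2 values less the group mean ran from -0.66 to 0.69 across the 12 arrays, which share 1 preparation and scaling per array. Robo1 and Srgap3, which differed in opposite directions between genotypes, ran the same way among the WT mice (Pearson r = 0.82, Spearman rho = 0.94, 6 arrays) and not among the K289R mice (r = -0.14, rho = -0.43, 6 arrays). These are descriptions without a test, and the WT value includes the low values of both genes on WT 1 and WT 3. The K289R values of Srgap3 lay at the level of the array medians, so the correlation among those mice says little.

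The genes whose pattern was most like that of Srgap3 within genotypes, among 19937 others over 12 arrays, were Castor1 (Pearson r = 0.94, Spearman rho = 0.90), Pate1 (r = 0.94, rho = 0.89), R3hcc1 (r = 0.92, rho = 0.80), Icam2 (r = 0.91, rho = 0.75) and Cdc42ep1 (r = 0.90, rho = 0.86). Without WT 3 and WT 5, the arrays farthest from the Srgap3 median, r was 0.95, 0.85, 0.88, 0.88 and 0.76 in the same order. No p-value is given for values picked as the highest of so many. Castor1 averaged 24.0 in WT and 23.0 in K289R, and Pate1 10.4 and 10.1, below the range of the array medians. Their likeness to Srgap3 cannot be told from shared background. The means of R3hcc1, Icam2 and Cdc42ep1 lay above that range. None of these 5 genes was called between genotypes, and their log2 differences lay between -0.10 and 0.05.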

How the data were processed

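Liver RNA of 12 mice was hybridised to Affymetrix gene arrays. The deposited values are linear intensities, 1 per probe set and array, which the authors made with Affymetrix Expression Console, per the submitters' processing notes. How they were summarized, background-corrected and normalized is not given in the sources read. These steps set the floor on which dim genes sit and can compress their folds. For arrays, their number limits the precision.

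Of 35556 rows, 21789 had 1 gene symbol, 1621 had several and 12146 had none listed, and rows with several or none were left out. No row with several symbols named a Robo, Slit or Srgap gene. By gene ID, 21698 rows matched the RefSeq gene table. A gene was represented by the brightest of its probe sets (mean log2 over all arrays). The log2 values of K289R and WT were compared by limma 3.58.1 in R 4.3.3 (lmFit, eBayes, no covariate), adjusted over 19938 genes by Benjamini-Hochberg. Every adjusted p comes from a two-sided limma test, in this fit unless another setting or set of arrays is named beside it. Single probe sets were fitted over all 21789. Means ± SD are of linear intensities. The replicate numbers name different mice and the labels give no pairing across genotypes, so no block was used in the main fit.

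The genes, lists and alternatives were chosen with earlier results of these data known. Genes outside the set were named by rule: flanking genes, up to 4 called genes of a list or else the 2 with the smallest p, and the 5 most like Srgap3. On simulated data for this comparison (19938 genes), 87 of 100 genes changed 1.5-fold and 100 of 100 changed 2-fold were called, with 9 unchanged genes among 196 calls. The simulated noise was normal and independent between genes and arrays, without effects shared by an array or compressed folds of dim genes. It therefore does not show that a gene not called here was unchanged. Figures were drawn with matplotlib 3.10.9.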

Additional observations from a re-analysis of the deposited data

How the results depend on the processing

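Robo1 kept its direction and its call in all 24 alternatives, with log2 differences from 1.02 to 1.32. Srgap3 kept its direction in all 24 (-0.51 to -0.28) and lost its call in 2. These were the mean of its probe sets (log2 difference -0.33, adjusted p = 0.0846) and the replicate number as a block (-0.41, adjusted p = 0.0606), and in each 1 member, Robo1, was called. All these fits reuse the arrays by which both genes were chosen, so kept calls describe the processing and support nothing. Where arrays were only left out, the directions were fixed, since the genotypes did not overlap for either gene. Correlations of same-numbered mice ran from -0.23 to 0.23, and 2 of 6 exceeded 0.1. Such values cannot decide whether same-numbered mice were handled together, and the labels do not say. The count of all changed genes, 114, was 61 with all rows tested, 75 without K289R 1 and 3, 65 without those and WT 1 and 3, and 81 to 159 with 1 array left out. The count of called pathway genes, 2, was 4 after quantile normalization, 6 without dim genes, 5 with a trended and robust variance, 4 with array weights, 0 with all rows, 1 without K289R 1 and 3, 0 without those and WT 1 and 3, and 2 to 4 with 1 array left out. The cause of these changes was not tested. Slit2 and Slit3 differences, near 0, took either sign. Without dim genes (mean log2 intensity under 5) Robo2, Robo3, Slit1 to Slit3 and Srgap1 were not tested.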
